A study of Mus musculus with 20 samples.

Results

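To ask what the remaining cells of the injured spinal cord express when microglia are depleted, the single-cell libraries made 7 days after spinal cord injury (SCI) from mice fed PLX5622 or vehicle chow were compared inside each cell cluster. PLX5622 is an oral inhibitor of the CSF1 receptor, which microglia need to survive. The members were all cells of the deposited count table that carried the label of either library, 504 cells from PLX5622-fed and 7439 from vehicle-fed mice, together 7943 of the 21016 cells in the series. A cluster of the authors' own clustering was compared when it held at least 20 cells in both libraries, which 10 of 14 clusters did, with 460 PLX5622 and 6880 vehicle cells. The description rests mainly on the 7 of these that are not microglia, monocyte-derived macrophages (MDMs) or astrocytes, with 260 PLX5622 and 1634 vehicle cells.

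The mice were female C57BL/6J animals bought at 8 to 10 weeks of age. They received chow with PLX5622, at 1200 ppm by the labels (the study's text also prints another ppm value), or vehicle chow for 2 weeks before a contusion at thoracic level 9 and stayed on it until tissue was taken at 7 days post-injury (dpi). The drug acts in the whole animal and is not confined to 1 cell type. By the study's account the cords were not perfused and were taken with their meninges. Cells still inside vessels or in the meninges can thus be among those sequenced. In each library the dissociated cords of several mice were pooled, so there was 1 library per diet, no mouse-to-mouse error could be estimated, and the diet cannot be told apart from any other difference between the libraries. Matching libraries from sham-operated mice and from 28 dpi, also 1 per diet, are given side by side for a few genes.

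Microglia, MDMs, monocytes and dendritic cells belong to the mononuclear phagocytes, which enter or expand at a contusion and take up debris. Endothelial cells line the vessels and form the blood-spinal cord barrier, ependymal cells line the central canal with beating cilia, and oligodendrocyte lineage cells include the proliferating precursors and the cells that make myelin. T, NK and B cells are lymphocytes that can enter from the blood.

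Expression was summed over the cells of a cluster in each library. It is given in CPM, the unique molecular identifiers (UMIs, each 1 captured transcript) of a gene per 1000000 UMIs of that cluster and library. The log2 ratio is PLX5622 over vehicle, with an exact 95% interval that covers counting error only. No test between the groups is possible with 1 library each. Counts of genes past a 2-fold difference therefore describe these libraries, and they were taken over genes whose mean CPM was worth at least 20 UMIs in the smaller library (called genes above the UMI minimum).

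The cells of the PLX5622 library held more UMIs, with a median of 5127 against 3983 per cell and 1981.5 against 1365 genes. By cluster the medians were 9405 and 2990 UMIs in monocytes and dendritic cells, 7093 and 2281 in ependymal cells, 3769 and 2409 in endothelial cells and 3617 and 1510 in T and NK cells, and they lay the other way in the oligodendrocyte lineage (2098.5 and 2301) and astrocytes (1395 and 2057). In MDMs the medians were 15945 and 5777 UMIs, and in microglia 6448 and 2902.5. The authors' table left out 29 of 533 barcodes of the PLX5622 library and none of the vehicle library, and the libraries shared 1 barcode. It still held 129 PLX5622 and 289 vehicle cells above the upper limit of genes per cell that the study states. Cluster names were checked against marker genes. All 6 endothelial and all 6 ependymal markers, the 3 T cell, 5 NK and 5 B cell markers were highest in their own cluster in both libraries. For the oligodendrocyte lineage it was 4 of 6 under PLX5622 and 5 of 6 under vehicle. For monocytes it was 4 of 6 in each library. Each name below stands for a cluster that is like that cell type by these markers. Cluster 10 went against its erythroid label in the vehicle library and is called by its number. The clusters of cycling cells (10 PLX5622 and 307 vehicle cells), neutrophils (12 and 223), pericytes or fibroblasts (10 and 20) and leptomeningeal cells (12 and 9) had too few cells and were not compared.

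Transcripts of genes strongly expressed by macrophages were found inside every compared cluster. Their share was higher in the vehicle library in the 8 clusters that are not microglia or MDMs. A list of 16 genes strongly expressed by microglia and MDMs, among them Apoe, Lyz2, Ctsd, C1qa and Tyrobp, made up 5.69% of endothelial UMIs under vehicle and 1.61% under PLX5622. In T and NK cells the shares were 9.48% and 0.882%. In B cells they were 12.4% and 3.04%, in ependymal cells 4.90% and 2.06%, and in the oligodendrocyte lineage 4.10% and 1.04%. The monocyte and dendritic cluster, which is itself myeloid, differed least, with 8.49% and 6.56%. In the cell at the median the vehicle share was smaller, 1.71% for endothelial cells, 1.68% for T and NK cells and 0.886% for the oligodendrocyte lineage. Much of the summed share thus sat in a minority of cells: 49 of 351 vehicle endothelial cells and 39 of 153 vehicle T and NK cells held over 5% of such UMIs, against 5 of 81 and 0 of 23 PLX5622 cells. In the sham libraries the list made up 1.95% of astrocyte UMIs under vehicle and 1.82% under PLX5622. For endothelial cells the sham shares were 0.923% and 0.529%. How much of a share was made by the cells of the cluster themselves was not tested.

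**Figure D1:**
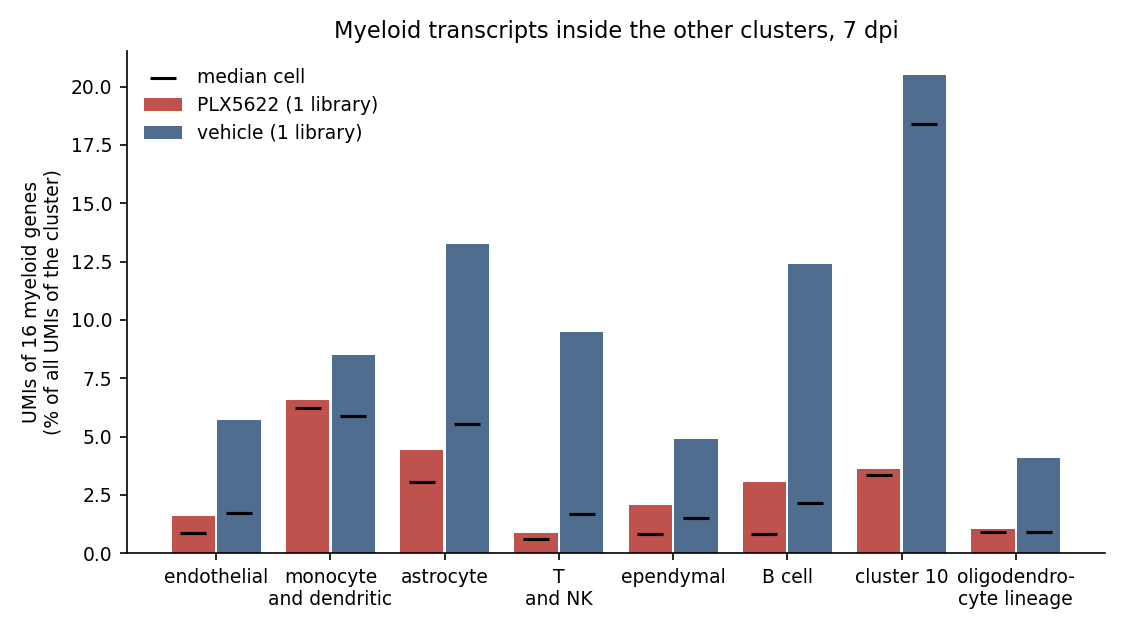
UMIs of 16 myeloid genes as a percentage of all UMIs of a cluster (bars) in the PLX5622 and the vehicle library at 7 dpi, 1 library each, with the share in the median cell as a black line. The vehicle bar is above the PLX5622 bar in all 8 clusters, by least in monocyte and dendritic cells (8.49% against 6.56%), and most vehicle bars stand well above their median cell.

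Macrophage genes were on the lower side in most clusters. Gpnmb, a lysosomal glycoprotein of lipid-laden macrophages, was at least 2-fold lower in 8 of the 10 clusters, with a median log2 ratio of -3.06. Apoe, the lipid carrier, and Trem2, a receptor for lipids, were likewise at least 2-fold lower in 8 of 10 clusters, with medians of -2.02 and -1.97. The complement genes C1qa, C1qb and C1qc were lower by that margin in 7 of 10 clusters, with medians of -2.57, -2.10 and -2.38. The 10 clusters include cluster 10, which held different cells in the libraries. A gene was called macrophage-enriched when it was at least 5-fold higher in vehicle microglia or MDMs at 28 dpi than in the same cluster of the vehicle sham library. Such genes were 109 of the 157 endothelial genes that were at least 2-fold lower (69.4%), while they were 3.41% of all endothelial genes above the UMI minimum. In T and NK cells they were 46 of 55 (83.6%, against 9.07%), in ependymal cells 94 of 121 (77.7%, against 3.80%) and in the oligodendrocyte lineage 32 of 60 (53.3%, against 7.56%). In the monocyte and dendritic cluster they were 11 of 45 (24.4%, against 1.69%) and in cluster 10 they were 16 of 77 (20.8%, against 9.52%). The median log2 ratio of the 16 myeloid genes in ependymal cells was -1.35, and it turned to 0.48 without cells called doublets. That setting left out 25 of 173 vehicle and 0 of 52 PLX5622 ependymal cells. Cells thus left the vehicle side only, and the turn cannot be told apart from that selection. The part of these transcripts in the other differences was not tested. Counts are also given in cells with at most 5% of UMIs from the 16 myeloid genes, called cells with few myeloid UMIs. This was done for the endothelial, ependymal, oligodendrocyte lineage, T and NK, B cell and astrocyte clusters. Ratios of the 16 genes themselves in such cells, among them Apoe and Gpnmb, follow in part from the selection.

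Summed over the 9 clusters other than cluster 10, 666 values were at least 2-fold higher and 721 at least 2-fold lower of 22730 (2.93% and 3.17%). Without cells called doublets they were 553 and 511, among a changed set of genes above the UMI minimum. Scaling by TMM factors in place of the cluster total left 455 higher and 847 lower values. It moved every log2 ratio of a cluster by -0.34 in astrocytes, -0.32 in T and NK cells, -0.26 in B cells, and by less in the others of the 9. In cluster 10, which is outside these counts, the shift was -0.71. Ratios near 0 in these 4 clusters are to be read with that shift.

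**Figure D2:**
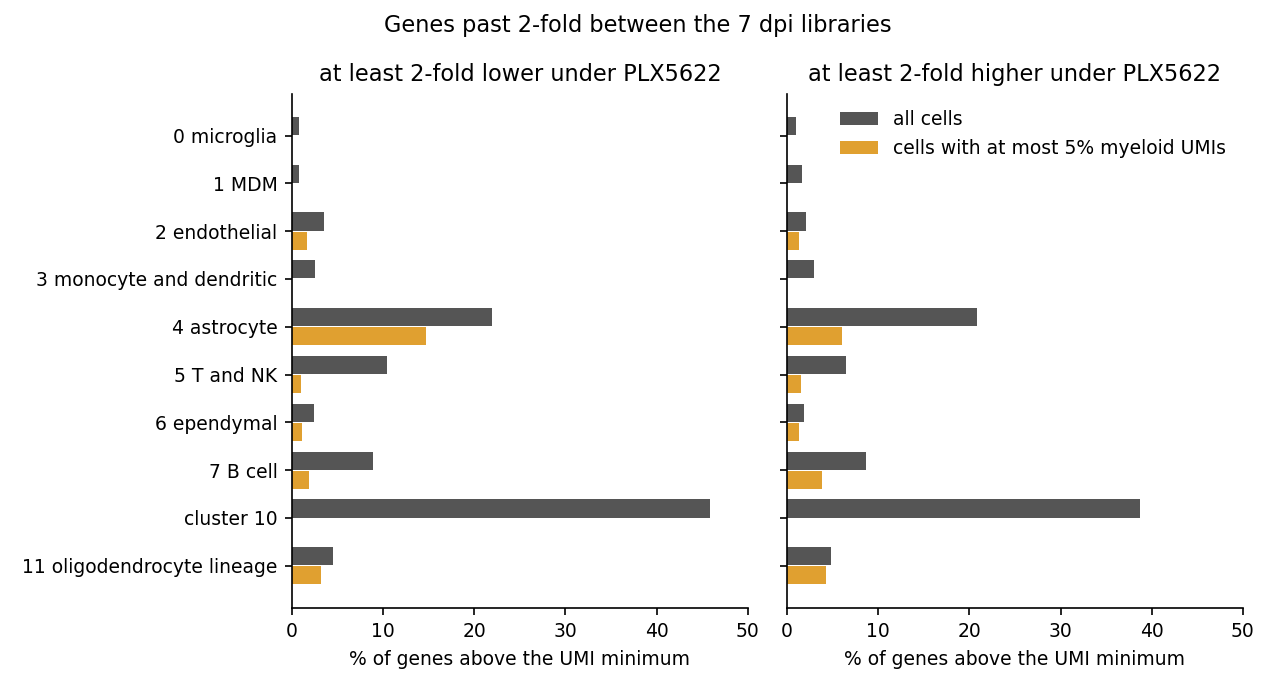
Percentage of genes above the UMI minimum that were at least 2-fold lower (left) or higher (right) under PLX5622 in each of the 10 clusters at 7 dpi, in all cells (grey) and in cells with at most 5% of UMIs from myeloid genes (orange, not drawn where it could not be formed). Cluster 10 and astrocytes stand out with 45.8% and 21.9% lower, and in T and NK cells the lower share drops from 10.4% to 0.951% in the cells with few myeloid UMIs. That limit left out 39 of 153 vehicle and 0 of 23 PLX5622 T and NK cells, so the drop follows in part from the selection.

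In endothelial cells (81 PLX5622 and 351 vehicle cells), the genes higher under PLX5622 included transporters and adhesion genes of the vessel wall, and those lower were mostly transcripts of neutrophils and macrophages. Of 4488 genes above the UMI minimum, 93 were at least 2-fold higher (2.07%) and 157 at least 2-fold lower (3.5%). In the cells with few myeloid UMIs the counts were 54 and 71 of 4306, and without cells called doublets 52 and 72 of 4504. With vehicle cells drawn down to the number of PLX5622 cells they were 198 and 196 of 3437. Of the list of barrier and transport genes, 13 of 14 above the minimum had a log2 ratio above 0 and 2 were at least 2-fold higher. The median was 0.41, beside 0.09 over all endothelial genes, and it was 0.15 in the cells with few myeloid UMIs.

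Mfsd2a, the transporter of omega-3 lipids at the blood-brain barrier, was at 313 CPM under PLX5622 and 133 CPM under vehicle, a log2 ratio of 1.23 (0.93 to 1.54). It ranged from 0.96 to 1.35 over the alternatives. Slc2a1, the glucose transporter GLUT1, was at 2880 and 1393 CPM, a log2 ratio of 1.05 (0.95 to 1.14), which dropped to 0.79 in cells with few myeloid UMIs. Neither transporter was past 2-fold in sham mice (0.23 and 0.02) or at 28 dpi (0.73 and 0.07). The tight junction gene Ocln had a ratio of 0.88 (0.52 to 1.23), the efflux pump gene Abcb1a 0.68 (0.56 to 0.80) and Cldn5, a sealing claudin, 0.41 (0.35 to 0.47). Tjp1, the junction scaffold ZO-1, did not differ beyond counting error at 0.06 (-0.12 to 0.24).

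All 6 leukocyte adhesion genes above the minimum had ratios above 0 and 3 were at least 2-fold higher, with a median of 0.98 (0.40 in cells with few myeloid UMIs). These values rested on few cells. Ackr1, the chemokine-binding receptor of venules, was at 166 and 41.6 CPM, a log2 ratio of 2.00 (1.51 to 2.50), but 1 cell held 86.2% of its PLX5622 UMIs, and it was -0.33 without the top cells (the cell with the most UMIs of the gene, left out in each library). Lrg1, a glycoprotein of inflamed vessels, was at 352 and 98.0 CPM (1.84, 1.53 to 2.17) and remained higher without its top cells, at 1.10. Icam1, which binds leukocyte integrins, had 30 UMIs in each library, which is 53.1 and 21.2 CPM and a ratio of 1.33 (0.55 to 2.11), or 0.90 without the top cells. Vcam1, another adhesion molecule, lay the other way with 5 PLX5622 and 75 vehicle UMIs and was below the UMI minimum.

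Among the immediate early and stress genes, 13 of 17 had endothelial ratios above 0, with a median of 0.58, and 0.53 in cells with few myeloid UMIs. Ier3, an early response gene that limits cell death, was at 520 and 180 CPM, a log2 ratio of 1.53 (1.28 to 1.77) that stayed between 1.03 and 1.82 over the alternatives. It was 0.32 in sham and 0.92 at 28 dpi. Klf2 and Klf4, transcription factors that respond to flow, had ratios of 0.64 (0.53 to 0.76) and 0.68 (0.46 to 0.90). Atf3, a stress factor, was at 30.1 and 42.3 CPM with an interval of -1.36 to 0.30. For angiogenesis genes the median was 0.30, with 8 of 11 above 0. One of them was at least 2-fold higher, Igfbp3, which binds insulin-like growth factors (85.0 and 21.2 CPM, 2.01, 1.32 to 2.71). Kdr, the receptor VEGFR2, did not differ beyond counting error at -0.07 (-0.41 to 0.27). Of 13 interferon response genes none was past 2-fold and the median was 0.18. Ch25h, which makes 25-hydroxycholesterol, was the endothelial gene furthest on the higher side of those named here, with 205 and 31.7 CPM (2.69, 2.19 to 3.22), but 1 cell held 67.2% of its PLX5622 UMIs and without the top cells the ratio was 1.36.

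On the lower side, S100a8 and S100a9, the calprotectin subunits of neutrophils, had 2 and 5 UMIs in PLX5622 endothelial cells against 1293 and 1634 in vehicle, at log2 ratios of -8.01 (-11.06 to -6.15) and -7.03 (-8.65 to -5.80). Their sham ratios were -7.79 and -6.99. Gpnmb was at 60.2 and 1718 CPM (-4.83, -5.37 to -4.35) and at -2.70 in cells with few myeloid UMIs. Igf1, a growth factor of macrophages, had 3 UMIs against 153 (-4.34, -6.64 to -2.77). Apoe was at 4489 and 20899 CPM (-2.22, -2.28 to -2.16).

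**Figure D3:**
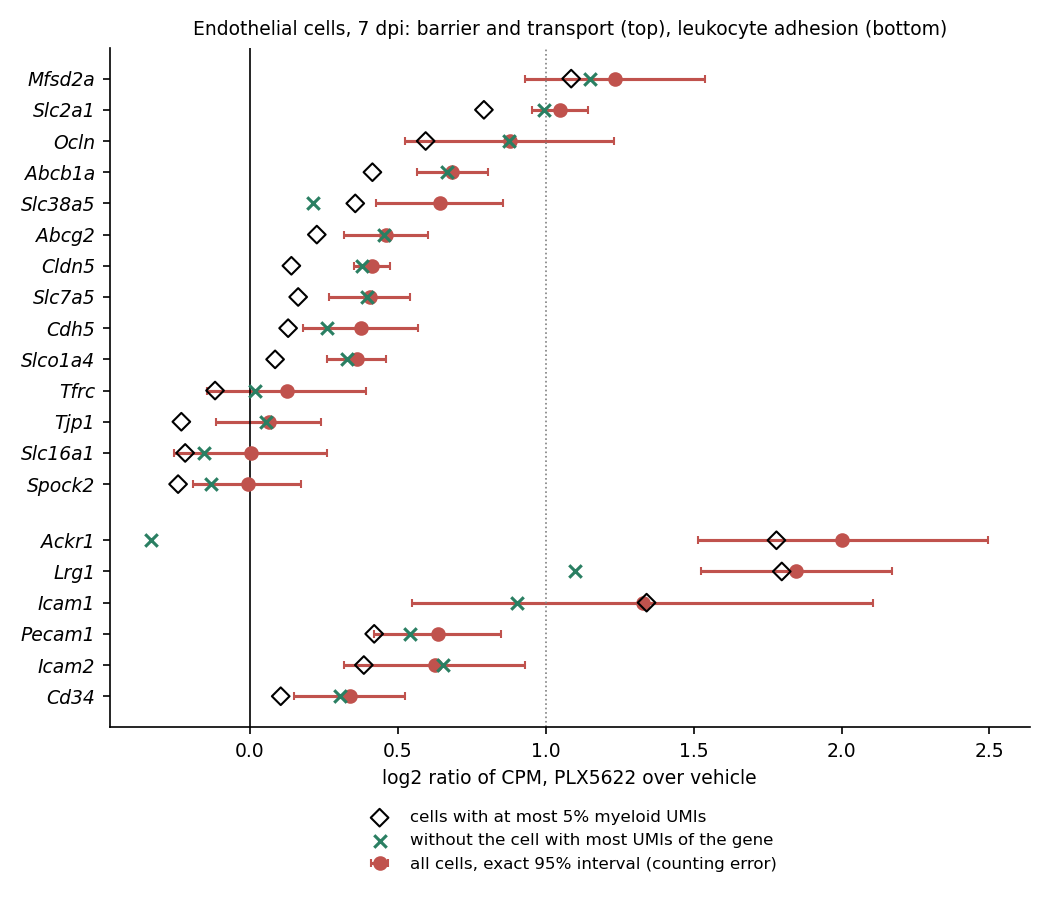
Log2 ratio of CPM, PLX5622 over vehicle, for the endothelial barrier and transport genes and leukocyte adhesion genes above the UMI minimum in endothelial cells at 7 dpi, with exact 95% intervals for counting error, beside the value without the top cell of each library and in cells with few myeloid UMIs. Mfsd2a and Slc2a1 lie at 1.23 and 1.05, while Ackr1 moves from 2.00 to below 0 once the top cells are left out.

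In ependymal cells (52 and 173 cells), cilia genes differed little, single genes such as Arl6 and Ahdc1 were at least 2-fold higher under PLX5622, and Tmsb4x and neutrophil and macrophage transcripts were lower. Of 4975 genes above the UMI minimum, 93 were at least 2-fold higher (1.87%) and 121 at least 2-fold lower (2.43%), or 58 and 50 of 4611 in the cells with few myeloid UMIs. Without cells called doublets it was 64 and 43 of 4590. None of 12 motile cilia genes was past 2-fold, 9 were above 0, and their median of 0.18 (-0.09 in cells with few myeloid UMIs) lay near the 0.11 of all ependymal genes. Foxj1, the master regulator of motile cilia, was the furthest of them, at 797 and 492 CPM (0.70, 0.49 to 0.90).

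Arl6, a small GTPase of the complex that carries proteins into cilia, was at 98.5 and 33.5 CPM, a log2 ratio of 1.56 (0.83 to 2.33) that lay between 1.42 and 2.50 over the alternatives. It was -0.14 in sham and 0.12 at 28 dpi. Id4, an inhibitor of differentiation factors, was at 238 and 121 CPM (0.98, 0.57 to 1.39), beside 0.01 in sham and 0.21 at 28 dpi. Gfap, the intermediate filament of glia, was at 174 and 93.2 CPM (0.90, 0.43 to 1.38) and Vim, another one, at 2315 and 1769 CPM (0.39, 0.27 to 0.50). Of 7 reactive astrocyte genes above the minimum, 4 were above 0, none was at least 2-fold higher and 1 was at least 2-fold lower, with a median of 0.24, and 0.04 in cells with few myeloid UMIs. Ahdc1, a DNA-binding protein, was at 115 and 32.0 CPM (1.84, 1.12 to 2.61).

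Tmsb4x, an actin-binding peptide that leukocytes express strongly, was at 2012 CPM under PLX5622 and 5625 CPM under vehicle, a log2 ratio of -1.48 (-1.58 to -1.39). It was -0.25 in sham and -1.79 at 28 dpi, and lay between -1.71 and -0.77 over the alternatives. Apoe was at 5690 and 20035 CPM (-1.82, -1.87 to -1.76). All 6 neutrophil granule protein genes above the minimum were at least 2-fold lower under PLX5622. S100a8 had 36 UMIs, 97.2% of them in 1 cell, against 1368 (-4.95, -5.47 to -4.47). S100a9 had 0 against 1574, and with the PLX5622 count put at the limit of 3 that a count of 0 allows it was at least 426-fold lower. In vehicle 61.7% of its UMIs sat in 1 cell. Camp, an antimicrobial peptide of neutrophils, had 0 against 193 UMIs, and 1 vehicle cell held 98.4% of them, so that a single cell set its ependymal value. Single cells also weighed on the other 2 genes, but for S100a8 the rich cell was on the PLX5622 side, which was the lower one. Gpnmb was 417 UMIs against 670 (-0.39), of which 1 PLX5622 cell held 96.4%.

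In the oligodendrocyte lineage (28 and 107 cells), genes of reactive glia were higher under PLX5622, and Mki67, Cenpf, Top2a and some genes of myelin were lower. Of 1336 genes above the UMI minimum, 64 were at least 2-fold higher (4.79%) and 60 at least 2-fold lower (4.49%), or 56 and 41 of 1302 in the cells with few myeloid UMIs. All 5 reactive astrocyte genes above the minimum had ratios above 0 and 4 were at least 2-fold higher, with a median of 2.85, and 2.89 in cells with few myeloid UMIs. The median of all genes in the cluster was 0.12.

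Gfap was at 626 CPM under PLX5622 and 24.4 CPM under vehicle, a log2 ratio of 4.68 (3.64 to 5.93) that stayed between 4.07 and 5.42 over the alternatives. After each cell was thinned to 1000 UMIs, 20.0% of 20 PLX5622 cells and 0 of 95 vehicle cells held a Gfap UMI. The exact binomial interval allows up to 3.81% of vehicle cells with a UMI at that thinned depth, which limits detection and not expression. Before thinning the shares were 32.1% and 6.54%. Astrocytes, which define this gene, had it in 58.3% and 54.9% of thinned cells, and vehicle microglia, which lack it, in 1.11%. At 28 dpi the lineage ratio for Gfap was -1.80. Vim was at 1613 and 192 CPM (3.07, 2.66 to 3.49) and Cd44, a hyaluronan receptor, at 395 and 54.9 CPM (2.85, 2.06 to 3.70). Timp3, a metalloproteinase inhibitor, was at 2641 and 223 CPM (3.57, 3.20 to 3.95). Serpina3n, a protease inhibitor of reactive glia, was at 1790 and 705 CPM (1.34, 1.08 to 1.61), but its ratio came down to 0.01 under the least favourable alternative. Crym, a thyroid hormone binding protein, had 83 UMIs against 2 (6.53), of which 1 cell held 97.6%.

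Of 4 G2 and M phase genes above the minimum, 3 were at least 2-fold lower in the lineage under PLX5622, with a median of -1.39. Mki67, the proliferation marker, had 3 UMIs against 101, or 20.4 and 308 CPM (-3.92, -6.22 to -2.33). Cenpf, a kinetochore protein, was at 109 and 366 CPM (-1.75, -2.60 to -0.99) and Top2a, the topoisomerase of dividing cells, at 211 and 433 CPM (-1.04, -1.65 to -0.47). Ube2c, a ubiquitin-conjugating enzyme of mitosis, did not differ beyond counting error at -0.13 (-0.79 to 0.51). Cdk1, a mitotic kinase below the UMI minimum, was at 143 and 61.0 CPM, Stmn1, a tubulin-binding protein, at 749 and 613 CPM and Hmgb2, a chromatin protein, at 456 and 491 CPM (-0.11, -0.54 to 0.31). These 3 genes were chosen after their values were seen. Summed over all 15 genes of the G2 and M phase list, the lineage had 1191 and 2221 CPM, a ratio of -0.90 (-1.15 to -0.66). The vehicle UMIs of Mki67 came from 21 of 107 cells and those of PLX5622 from 2 of 28.

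Of 10 oligodendrocyte and myelin genes, 3 were above 0 and 2 were at least 2-fold lower, with a median of -0.28. Among the lower ones was Cnp, an enzyme of myelin, at 225 and 629 CPM (-1.48, -2.06 to -0.95). The lineage factors Olig1 and Olig2 had ratios of -0.29 (-0.49 to -0.09) and -0.26 (-0.72 to 0.18). Pdgfra and Cspg4, both markers of precursors, lay at -0.40 (-0.82 to 0.01) and 0.14 (-0.31 to 0.57). In a cluster of 28 PLX5622 cells, a lower level per cell and a different mix of precursors and mature cells cannot be told apart.

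In T and NK cells (23 and 153 cells), Gzmb, Gzma and Il7r were at least 2-fold higher under PLX5622 and Ccl4 was at least 2-fold lower. Of 529 genes above the UMI minimum, 34 were at least 2-fold higher (6.43%) and 55 at least 2-fold lower (10.4%), and all 16 myeloid genes were among the lower ones. In the cells with few myeloid UMIs, 8 of 526 were higher (1.52%) and 5 lower (0.951%). Scaling by TMM factors left 13 higher and 68 lower of 529. Of 6 effector genes, 5 had ratios above 0, 2 of them at least 2-fold, with a median of 0.77 (0.24 in cells with few myeloid UMIs). All 5 T cell identity and state genes were above 0 and 2 at least 2-fold higher, with a median of 0.83 (0.16). The list medians of this cluster thus lay lower where UMIs of the 16 myeloid genes were few.

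Il7r, the interleukin-7 receptor of naive and memory T cells, was at 1150 and 340 CPM, a log2 ratio of 1.76 (1.38 to 2.13), and stayed between 1.10 and 2.39 over the alternatives. After thinning, 56.5% of 23 PLX5622 and 24.8% of 121 vehicle cells held an Il7r UMI, against 0% and 1.37% of B cells. Before thinning the T and NK shares were 69.6% and 39.9%. The sham ratio was -0.69 and that at 28 dpi 0.76. Gzmb, a granzyme of cytotoxic cells, was at 400 and 75.7 CPM (2.40, 1.67 to 3.16), and at 1.86 without the top cells. Gzma, a second granzyme, was at 2187 and 830 CPM (1.40, 1.14 to 1.66), with a range of 0.53 to 1.61 over the alternatives. Their sham ratios lay the other way, at -2.33 and -1.11. Cd3e, a T cell receptor subunit, was at 411 and 189 CPM (1.12, 0.52 to 1.70) but at 0.46 in cells with few myeloid UMIs. Nkg7, a granule protein, did not differ beyond counting error at 0.14 (-0.21 to 0.48). With 23 PLX5622 cells, a different level per cell and a different mix of T and NK cells cannot be told apart.

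The chemokine genes Ccl4 and Ccl5 lay apart in T and NK cells. Ccl4 was at 103 CPM under PLX5622 and 470 CPM under vehicle (-2.19, -3.28 to -1.28), and at -2.22 in cells with few myeloid UMIs. The same gene was at 0.10 in sham and -2.07 at 28 dpi. Ccl5 was at 4866 and 3183 CPM (0.61, 0.46 to 0.77), but at -0.24 in cells with few myeloid UMIs. Apoe, which lymphocytes hardly make, was at 1314 and 46392 CPM (-5.14, -5.40 to -4.89). It was at -1.28 in those cells, which were selected in part by their Apoe UMIs.

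In B cells (22 and 190 cells), Cd74, 4 of 10 immediate early and stress genes and both hemoglobin genes above the UMI minimum were at least 2-fold higher under PLX5622. Of 638 genes above the UMI minimum, 55 were at least 2-fold higher (8.62%) and 57 at least 2-fold lower (8.93%), or 16 and 8 of 422 in the cells with few myeloid UMIs. With TMM factors they were 26 and 82. All 5 MHC class II genes above the minimum had ratios above 0 and 1 was at least 2-fold higher, with a median of 0.90, which was 0.18 in the cells with few myeloid UMIs. Cd74, the invariant chain, was at 9436 and 3857 CPM (1.29, 1.19 to 1.39), and at 0.62 in those cells. H2-Eb1 was at 2467 and 1318 CPM (0.90, 0.71 to 1.10).

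Of 10 immediate early and stress genes, 9 were above 0 in B cells and 4 at least 2-fold higher, with a median of 0.69, and 1.11 over 6 genes in the cells with few myeloid UMIs. Jund, an AP-1 subunit, was at 1200 and 378 CPM (1.67, 1.36 to 1.97), and Klf2 at 1366 and 499 CPM (1.45, 1.18 to 1.73). Jun, another AP-1 subunit, was at 182 and 283 CPM with an interval of -1.34 to 0.01. The mature B cell gene Ms4a1, which encodes CD20, was at 944 and 589 CPM (0.68, 0.36 to 0.98), and at -0.23 in cells with few myeloid UMIs. Hba-a2, the alpha globin, had 382 UMIs against 94, or 3162 and 142 CPM (4.48, 4.15 to 4.82), and 63.4% of the PLX5622 UMIs were in 1 cell. Alas2, the first enzyme of heme synthesis in red cells, had 66 against 28 (3.69, 3.03 to 4.38). Cx3cr1, a receptor of microglia and monocytes, was at 1167 and 579 CPM (1.01, 0.72 to 1.29), but at -0.24 without its top cells.

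In monocytes and dendritic cells (29 and 602 cells), Cxcr4 and Ifitm1 were at least 2-fold higher under PLX5622, MHC class II genes lay above 0 with none past 2-fold, and 4 of 8 chemokine genes and the secreted proteins Fn1 and Slpi were at least 2-fold lower. Of 1776 genes above the UMI minimum, 52 were at least 2-fold higher (2.93%) and 45 at least 2-fold lower (2.53%). With 29 PLX5622 cells, a different level per cell and a different mix of monocytes and dendritic cells cannot be told apart for the genes of this cluster. This cluster had the least difference in myeloid transcripts of those compared outside microglia and MDMs. Its median cell held 6.23% under PLX5622 and 5.87% under vehicle. All 6 MHC class II genes were above 0, none past 2-fold, with a median of 0.54 against 0.10 for all genes of the cluster. Cd74 was at 10278 and 5680 CPM (0.86, 0.80 to 0.92) and H2-Aa at 5074 and 3304 CPM (0.62, 0.53 to 0.70). At 28 dpi these ratios were 1.30 and 0.95.

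Cxcr4, the receptor that holds leukocytes in bone marrow, was at 293 and 64.2 CPM, a log2 ratio of 2.19 (1.77 to 2.60) that lay between 2.08 and 2.59 over the alternatives. It was 0.52 at 28 dpi. Ifitm1, an interferon-induced membrane protein, was at 902 and 139 CPM (2.70, 2.44 to 2.95). Cd209a, a lectin of monocyte-derived dendritic cells, was at 274 and 119 CPM (1.20, 0.80 to 1.58). S100a4, a calcium-binding protein of monocytes, was at 2602 and 1422 CPM (0.87, 0.75 to 0.99). Ccr2, the receptor for monocyte entry, was at 761 and 589 CPM (0.37, 0.15 to 0.59), while Csf1r, whose product the drug inhibits, was at 445 and 622 CPM (-0.48, -0.77 to -0.21). Il1b did not differ beyond counting error at 0.43 (-0.12 to 0.94).

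Of 8 chemokine genes above the minimum in this cluster, 1 was at least 2-fold higher and 4 at least 2-fold lower, with a median of -0.89. The higher one was Ccl2, which recruits monocytes, at 278 and 137 CPM (1.02, 0.63 to 1.39), or 0.58 without its top cells. Pf4, platelet factor 4, was at 26.6 and 511 CPM (-4.26, -5.58 to -3.21), Ccl6 at 285 and 1073 CPM (-1.91, -2.26 to -1.58) and Ccl3 at 45.7 and 125 CPM (-1.46, -2.43 to -0.63). The fourth was Cxcl13, which attracts B cells, with 0 UMIs against 459.

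Fn1, fibronectin, was at 426 and 1452 CPM in monocytes and dendritic cells (-1.77, -2.05 to -1.50). Klf2 was lower here, at 64.7 and 274 CPM (-2.08, -2.87 to -1.39), although it was higher in endothelial and B cells. Slpi, a protease inhibitor, was at 26.6 and 760 CPM (-4.83, -6.15 to -3.79). Retnla, a marker of alternative activation, had 0 UMIs against 1511, and was at least 60.8-fold lower at the limit of 3 counts. Its 1511 UMIs came from 25 of 602 vehicle cells, so the absence in 29 PLX5622 cells rests on few cells. S100a8 and S100a9 were at log2 ratios of 1.74 and 1.70, but 1 PLX5622 cell held 99.1% and 100% of their UMIs, and without the top cells they were at -4.74 and -3.51.

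**Figure D4:**
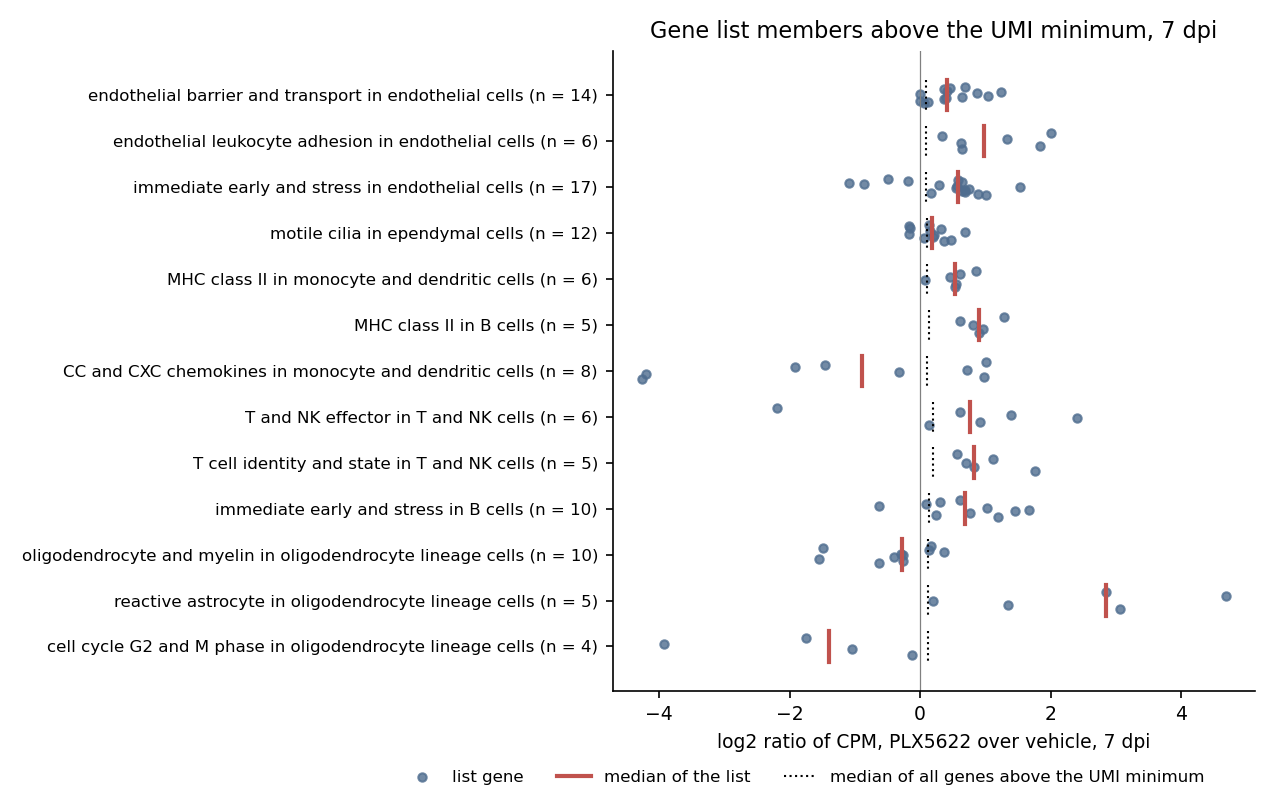
Log2 ratio of CPM, PLX5622 over vehicle at 7 dpi, for each list gene above the UMI minimum in the named cluster (blue points), with the list median (red line) and the median of all genes above the minimum in that cluster (dotted line). Reactive astrocyte genes in the oligodendrocyte lineage have the highest median (2.85) and G2 and M phase genes in the same cluster the lowest (-1.39).

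Cluster 10 (25 and 58 cells) held different cells in the libraries. All 4 erythroid markers were highest there in both libraries, but in PLX5622 hemoglobin made up 17.3% of its UMIs and 16 myeloid genes 3.61%, while in vehicle the shares were 0.322% and 20.5%. Apoe had 116 UMIs in the PLX5622 cells and 21736 in the vehicle cells, in 58 of 58 of them, and C1qa had 8 and 1725. Of 168 genes above the UMI minimum, 65 were at least 2-fold higher (38.7%) and 77 at least 2-fold lower (45.8%). All 7 erythroid maturation genes above the minimum were higher, with a median of 5.02. Among them Car2, carbonic anhydrase, was at 14386 and 177 CPM (6.34, 5.90 to 6.82) and Slc4a1, the band 3 anion exchanger, at 3223 and 142 CPM (4.50, 3.91 to 5.12). Median UMIs per cell were 707 and 4107. In the sham libraries hemoglobin made up 18.6% of the cluster's UMIs under PLX5622 and 12.0% under vehicle.

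Some genes were higher under PLX5622 in every cluster where they were above the UMI minimum. Ubb, a polyubiquitin gene, was at least 2-fold higher in 10 of 10 clusters, with ratios from 1.21 to 5.58 (the latter in cluster 10) and a median of 1.57. It was at 979 and 318 CPM in endothelial cells, at 1039 and 304 CPM in ependymal cells, and at 842 and 262 CPM in T and NK cells. The ribosomal protein genes Rpl34 and Rps27 were at least 2-fold higher in 7 of 7 clusters, with medians of 1.51 and 1.30, and Arf5, a GTPase of vesicle transport, in 6 of 6, with a median of 1.44. H2-T23, a nonclassical MHC class I gene, was at least 2-fold higher in 4 of 4 clusters, from 1.09 to 1.21, and at 202 and 87.4 CPM in endothelial cells. At 28 dpi the medians were 1.18 for Ubb, 1.82 for Rpl34, 0.90 for Rps27, 0.74 for Arf5 and 0.55 for H2-T23. In sham they were 0.47, 1.09, 1.85, 2.11 and 0.09. The sham medians were over 5 clusters for Ubb and 3 for each of the others. Those at 28 dpi were over 9 clusters for Ubb, 7 for Rpl34 and Rps27, and 6 for Arf5 and H2-T23. Medians of different times are thus not over the same clusters. Ubb, Rpl34 and Rps27 have near-identical copies in the genome whose reads the counting could split, so their values are uncertain. Whether this bears on the ratios between the libraries was not tested. A difference shared by all clusters of a library cannot be told apart from a difference between the libraries. Hemoglobin transcripts ran through the clusters too, with Hba-a2 at least 2-fold higher in 5 of 6 clusters and a median of 4.09. Cluster 10, which held different cells in the libraries, is counted here, with 5.58 for Ubb, 5.10 for Arf5 and 5.63 for Hba-a2.

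**Figure D5:**
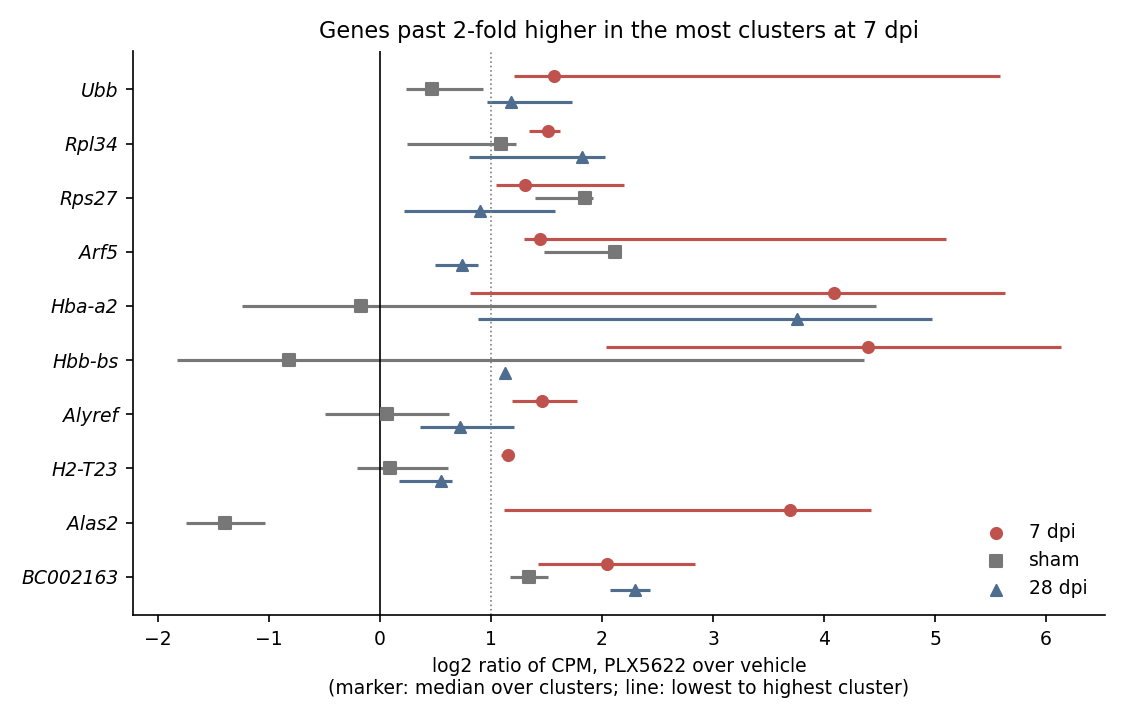
Log2 ratio of CPM, PLX5622 over vehicle, for the 10 genes at least 2-fold higher in the most clusters at 7 dpi, as the median (marker) and the lowest to highest value (line) over the clusters where the gene was above the UMI minimum, at 7 dpi (red), in sham (grey) and at 28 dpi (blue). At 7 dpi the whole Ubb line lies above 1, from 1.21 to 5.58, while its sham median is 0.47. The Arf5 median is 2.11 in sham, over 3 clusters, and 1.44 at 7 dpi, over 6 clusters. The 5.58 is from cluster 10, which held different cells in the 7 dpi libraries.

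Astrocytes, microglia and MDMs are given briefly. In astrocytes (39 and 69 cells), 152 of 731 genes were at least 2-fold higher (20.8%) and 160 at least 2-fold lower (21.9%), beside myeloid shares of 4.40% and 13.2%. In the cells with few myeloid UMIs it was 19 and 46 of 314. The balance of higher and lower genes moved with the scaling, which gave 74 and 189 with TMM factors and 61 and 204 with DESeq2 size factors. All 5 reactive astrocyte genes were above 0, with a median of 1.57, but after thinning the median was -0.18. Gfap was at 4799 and 1578 CPM (1.60, 1.39 to 1.82), with 65.9% of the PLX5622 UMIs in 1 cell, and Vim was at 3.26, or 0.21 without its top cells. The median of 13 transport and metabolism genes was 1.13, and 0.08 in cells with few myeloid UMIs. F3, tissue factor, was at 819 and 98.0 CPM (3.06, 2.32 to 3.88).

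In microglia (61 and 2154 cells), 20 of 2105 genes were at least 2-fold higher (0.95%) and 16 at least 2-fold lower (0.76%). The surviving PLX5622 cells had the homeostatic marker P2ry12, a purinergic receptor, at 454 and 351 CPM (0.37, 0.14 to 0.60). Csf1r was at 2238 and 2086 CPM (0.10, 0.00 to 0.20). Gpnmb was lower, at 54.8 and 224 CPM (-2.03, -2.73 to -1.42), as was Pf4 (20.9 and 98.2 CPM).

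In MDMs (100 and 3023 cells), 103 of 6152 genes were at least 2-fold higher (1.67%) and 50 at least 2-fold lower (0.813%). Gal, the neuropeptide galanin, was at 298 and 23.1 CPM (3.69, 3.50 to 3.87) and also higher at 28 dpi (3.43). Hp, haptoglobin, which binds free hemoglobin, was at 55.0 and 6.24 CPM (3.14, 2.74 to 3.54). Cd5l, a scavenger receptor protein of macrophages, was at 14.3 and 158 CPM (-3.47, -4.10 to -2.90), while at 28 dpi its ratio was 2.07. Ccl5 was at 180 and 21.9 CPM (3.04, 2.83 to 3.25), but 1 cell held most of the PLX5622 UMIs and without the top cells the ratio was -1.70.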

How the data were processed

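Single-cell RNA-seq was made from dissociated spinal cord (1 cm around the injury) of PLX5622-fed and vehicle-fed mice. The authors deposited UMI counts per gene and cell, made with Cell Ranger (matrix header software 3.0.2; builds GRCm38 and mm10 in the submitters' processing notes), a combined count table of 16003 genes and 21016 cells, and cluster numbers from Seurat. Those cells, clusters and raw counts were used. The combined table holds no mitochondrial genes. Members, gene lists (29) and thresholds were chosen with earlier results of these data known.

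Counts were summed per cluster and library with Python 3.11.15 and pandas 2.3.3, over a total of 4353923 UMIs under PLX5622 and 35694246 under vehicle, and divided by the cluster total to give CPM. Intervals are exact Poisson for CPM, exact conditional binomial for ratios and Clopper-Pearson for shares (scipy 1.17.1, 95%). A count of 0 was set to 3 for ratios. Because each diet had 1 library, no test between diets was made. Named genes were taken from, per cluster, the 5 with the highest and lowest ratios above the UMI minimum, the 3 that differed most from the other clusters in each direction, the gene lists and genes the study names from these same libraries (such as Arl6, Id4, Ier3 and Tmsb4x), and, across clusters, the 10 past 2-fold in most clusters in each direction. Vcam1, named below the minimum, was chosen after its values were seen. Doublets were left in, and the cells with the highest Scrublet scores (scanpy 1.11.5) at the expected rate, 2 under PLX5622 and 443 under vehicle, were left out in an alternative as called doublets. The automatic Scrublet threshold, which was not used, called 8 and 335 cells. Other alternatives were TMM (edgeR 4.0.16) and DESeq2 1.42.0 size factors, other totals, weights and UMI minimums, thinning to 1000 UMIs per cell, and cells with few myeloid UMIs, the latter at a limit of 5% chosen after seeing the data. The ratio and interval code was tested on simulated counts. Some genes are not reported here.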

Additional observations from a re-analysis of the deposited data

How the results depend on the processing

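The number of genes past 2-fold, summed over the 9 clusters other than cluster 10, depended on the UMI minimum and on which cells entered. Against 666 higher and 721 lower, a minimum of 10 UMIs gave 1635 and 1507, a minimum of 50 UMIs 225 and 317, and no minimum beyond 1 UMI in each library 13201 and 8303. Thinning each cell to 1000 UMIs gave 63 and 116 of 2413, as fewer genes passed the minimum, and cells with at most 5% myeloid UMIs gave 386 and 332, with microglia, MDMs and the monocyte and dendritic cluster left whole. Each UMI minimum and each choice of cells admitted another set of genes, so a change in these counts is not a change in the share of genes past 2-fold. DESeq2 size factors, which left the set of genes as it was, gave 433 higher and 864 lower. The other alternatives kept both counts within 1.5 times. Of 1449 list medians recomputed, 1272 moved by less than 0.5 on the log2 scale, and 3 of those past 2-fold reversed: the myeloid list in ependymal cells without cells called doublets (0.48), reactive astrocyte genes in astrocytes after thinning (-0.18) and neutrophil maturation genes in ependymal cells with vehicle cells drawn down to the number of PLX5622 cells (0.44). Of 1530 gene ratios, 1172 stayed within their counting interval, and 17 of those past 2-fold reversed. Without the cell richest in the gene in each library, the ratio was -1.70 for Ccl5 in MDMs, -0.33 for Ackr1 in endothelial cells, -4.74 for S100a8 and -3.51 for S100a9 in monocytes and dendritic cells, -2.08 for Fn1 in astrocytes, 1.89 for Ngp and 0.30 for Camp in ependymal cells and -0.24 for Cx3cr1 in B cells. With each cell weighted alike it was -0.24 for Ackr1 and -0.33 for Fn1 in astrocytes. After thinning it was -0.51 for Ackr1, 0.34 for Lsp1 in endothelial cells and 0.47 for Coro1a in ependymal cells. Without cells called doublets it was 0.11 for Fcrls in endothelial cells and 0.81 for Coro1a, with vehicle cells drawn down 0.49 for Saa3 in monocytes and dendritic cells, and in cells with few myeloid UMIs -1.01 for Cx3cr1 in B cells. For cluster 10, thinning (5 PLX5622 cells), a minimum of 500 genes and the limit on myeloid UMIs (3 vehicle cells) could not be fitted. None of these settings speaks to differences between mice. No paired analysis was possible because each diet had 1 library and no test was made.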
